A study of Mus musculus with 6 samples.

Results

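The 10 iron and heme handling genes described here cover heme breakdown (*Hmox1* and *Blvrb*), ferritin iron storage (*Fth1* and *Ftl1*), divalent metal transport (*Slc11a1* and *Slc11a2*), uptake of transferrin-bound iron (*Tfrc*), heme transport out of the lysosome (*Slc48a1*), iron export (*Slc40a1*) and its hormone hepcidin (*Hamp*). They were matched by gene symbol with no cutoff on a measured value, and all 10 were found among the 17441 genes listed in at least 1 library. RNA was sequenced from mouse heart tissue below the coronary ligature, 3 days after surgery, in 12-week-old males with 2 libraries per group. The groups were wild-type mice after a sham operation (WT sham), wild-type mice after ligation of the left coronary artery to induce myocardial infarction (WT MI), and mice with *Card9* knocked out after the same ligation (*Card9* KO MI). CARD9 is an adapter of innate immune signalling in myeloid cells. The strains are on a C57BL/6 background, no source used here gives a cell-type promoter or the deleted exons of the knockout, and sham-operated *Card9* KO mice were not analysed here. No source says that the libraries of a group came from separate animals, so p-values measure only the spread between these libraries, which may be technical.

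Cells that engulf dead cells and red cells free the heme of their proteins with heme oxygenase, which *Hmox1* encodes, and the released iron is stored in shells of ferritin or exported through ferroportin, which *Slc40a1* encodes. Hepcidin from the liver blocks ferroportin, and the transferrin receptor, which *Tfrc* encodes, brings iron from the circulation into cells. In the heart, iron feeds the heme and iron-sulfur proteins of the mitochondria, and an infarct fills within days with macrophages that clear dead heart muscle and leaked blood. Cells balance these genes after transcription as well: when iron is scarce, iron regulatory proteins bind a hairpin in the mRNA, the iron-responsive element, which blocks translation when it lies before the coding sequence and protects the mRNA from decay when it lies after it.

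The iron-responsive elements found in the members are shown because they part members that iron is known to set at translation from *Tfrc*, which it is known to set at mRNA stability. The search pattern was C, 5 bases, the loop CAGTGN with a last base other than G, and 5 bases that pair with the first 5, G-T pairs included, on the transcript strand of the GENCODE M1 transcripts of mm9. It was present in the 5′ untranslated region of 3 of the 10 members and, 4 times, in the 3′ untranslated region of 1 member. Among all genes, 0.11% of 19945 had a match in a 5′ untranslated region and 0.465% of 20007 in a 3′ untranslated region. The sequences follow in the order 5′ to 3′, with the 6 loop bases in capitals. The element of *Fth1* lies at chr19:10057222-10057250 on the plus strand. Those of *Ftl1* and *Slc40a1* lie on the minus strand at chr7:52715149-52715177 and chr1:45982310-45982338, and all 3 elements are in exons. The *Tfrc* elements a to d lie on the plus strand at chr16:32631305-32631333, chr16:32631684-32631712, chr16:32631749-32631777 and chr16:32631796-32631824, in the same 3′ untranslated region.
Fth1: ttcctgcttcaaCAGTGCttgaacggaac
Ftl1: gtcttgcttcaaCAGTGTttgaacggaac
Slc40a1: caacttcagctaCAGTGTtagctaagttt
Tfrc a: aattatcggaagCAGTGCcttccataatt
Tfrc b: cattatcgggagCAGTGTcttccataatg
Tfrc c: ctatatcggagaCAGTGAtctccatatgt
Tfrc d: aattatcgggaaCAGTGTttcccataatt
The elements of *Fth1* and *Ftl1* were identical at 26 of 29 bases, and the element of *Slc40a1* was identical to either at 13 of 29. *Slc11a2* had no match to these letters in the transcripts searched. The pattern demands 5 unbroken pairs, so an element with a bulge or a mismatch there would be missed. The lack of a match therefore does not show that a member has no element. A match is a stretch of letters and was not tested as a binding site.

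The values are FPKM as deposited by the authors, that is, fragments scaled to the length of the transcript and to the mapped fragments of the library. Levels of different genes can be compared only roughly, since the annotation and the treatment of shared reads are not given in the sources used here. The depth, estimated from the spacing of low values, was between 3010000 and 4280000 fragments per library. The 13120 genes that reached 1 FPKM in 2 or more libraries were tested with limma on log2(FPKM + 1), the 3 groups in 1 fit, and a gene was called at a Benjamini-Hochberg adjusted p below 0.05. Because 1 was added, low genes changed by more than these log2 values show. With 2 libraries against 2, an exact two-sided permutation test of a single gene cannot go below p = 0.333. *Card9* itself read 0.99 and 1.03 FPKM in WT sham, against 3.39 and 5.08 in WT MI, while 9.85 and 6.94 were found in the pair of libraries with the *Card9* KO MI label. The deleted gene was thus not lower in the KO-labelled libraries, as that pair is called below (log2 fold change 0.85 against WT MI, SE 0.23, limma adjusted p = 0.11), and every direction against WT MI below rests on the label.

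**Figure D1:**
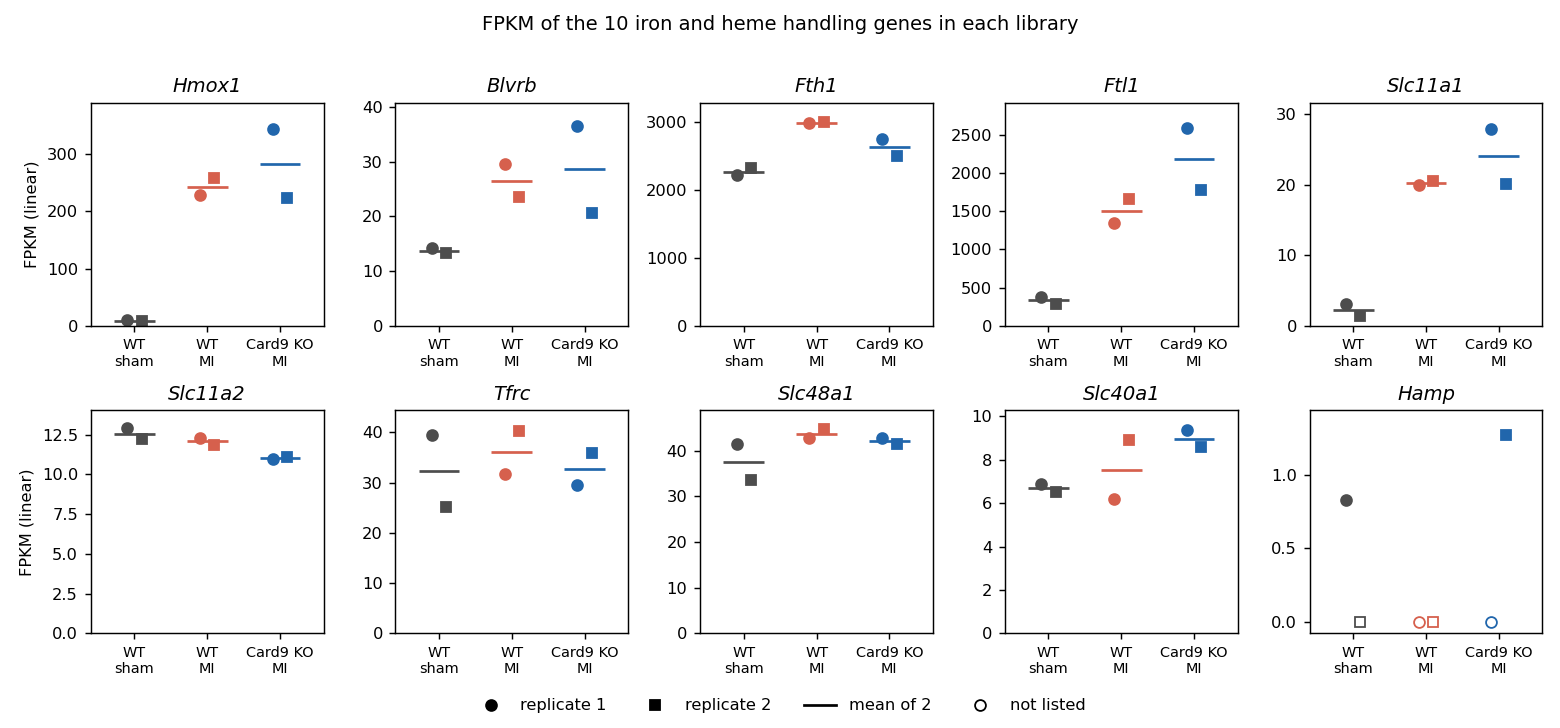
FPKM on a linear axis of the 10 genes in each of the 6 libraries, with circles for replicate 1, squares for replicate 2, bars for the mean of 2 and open symbols at 0 for a library that does not list the gene. The infarct libraries of *Hmox1*, *Blvrb*, *Fth1*, *Ftl1*, *Slc11a1* and, by little, *Slc48a1* all lie above both WT sham libraries. How many of all genes do so was not counted. The infarct libraries of *Tfrc* overlap WT sham. For *Slc40a1* the WT MI libraries overlap WT sham, while both KO-labelled libraries lie above it.

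In WT MI, 5 of the 9 tested members were called higher than in WT sham, namely *Hmox1*, *Slc11a1*, *Ftl1*, *Blvrb* and *Fth1*, and no member was called lower. All 9 reached 1 FPKM in both WT sham libraries. Of all 13120 genes, 27.7% were called higher and 9.39% lower in this comparison, so calls were common. The median log2 fold change of the 9 members was 0.40 beside 0.19 for all genes tested. That median of all genes moved to 0.05 with upper-quartile scaling, −0.07 with quantile normalization and 0.06 with scaling without the 100 most abundant genes. The share of calls that were higher was 74.7% in the values as deposited and 60.4%, 48.6% and 61.1% under these scalings, in the same order. *Hmox1*, *Ftl1* and *Slc11a1* were called higher under all 17 alternative fits, while *Blvrb* and *Fth1* were not.

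*Hmox1* (NCBI gene 15368, mm9 chr8:77617490-77624495, plus strand), the inducible heme oxygenase, read 9.33 and 8.92 FPKM in WT sham, against 228.46 and 258.08 in WT MI, while 344.17 and 223.01 were found in the KO-labelled libraries. Both WT MI libraries lay far above both WT sham libraries, and the groups did not come close to overlapping. The ratio of the group means was 26.7. The log2 fold change was 4.59 (SE 0.19, limma adjusted p = 1.08e-05), 4.40 above the median of all genes and ranked 13 from the highest of 13120. Among all listed genes *Hmox1* stood at rank 5710 and 5865 by level in WT sham and at rank 334 and 292 in WT MI. *Hmox2*, the constitutive heme oxygenase, had a mean FPKM of 53.9 in WT sham and 66.9 in WT MI (log2 fold change 0.31, limma adjusted p = 0.067). *Hmox1* was therefore below *Hmox2* in the sham heart, at 0.161 and 0.179 of its FPKM, and above it after infarction, at 3.47 and 3.79 times.

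*Blvrb* (NCBI gene 233016, mm9 chr7:28232997-28251163, plus strand) encodes a biliverdin and flavin reductase. It read 14.24 and 13.29 FPKM in WT sham, against 29.59 and 23.5 in WT MI, while 36.61 and 20.65 were found in the KO-labelled libraries. The infarct libraries were all above WT sham, but the 2 KO-labelled libraries were far apart and enclosed both WT MI libraries. Its log2 fold change in WT MI was 0.89 (SE 0.24, limma adjusted p = 0.023). The call was lost with quantile normalization, without a filter on low values and with any of the 4 sham or WT MI libraries left out, over which the log2 fold change lay between 0.73 and 1.05. *Blvra*, the other biliverdin reductase, had a mean FPKM of 6.64 in WT sham and 13.0 in WT MI (log2 fold change 0.87, limma adjusted p = 0.0028). The ratio of *Blvrb* to *Blvra* stayed between 1.57 and 2.29 in the 6 libraries.

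The ferritin genes moved by different amounts. *Ftl1* (NCBI gene 14325, mm9 chr7:52713314-52715254, minus strand), the light subunit that helps iron mineral form inside the shell, read 382.24 and 286.17 FPKM in WT sham, against 1350.51 and 1664.17 in WT MI, while 2590.09 and 1786.07 were found in the KO-labelled libraries. The 3 groups did not overlap, and the order was WT sham, WT MI, *Card9* KO MI. The log2 fold change in WT MI was 2.18 (SE 0.21, limma adjusted p = 2.5e-04), a ratio of means of 4.51, and it placed *Ftl1* at rank 261 of 13120.

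*Fth1* (NCBI gene 14319, mm9 chr19:10057193-10059582, plus strand), the heavy subunit that oxidises iron for storage, was far more abundant in the sham heart, at an FPKM of 2223.79 and 2323.62. It reached 2986.08 and 3004.17 in WT MI, while the KO-labelled libraries stood at 2751.14 and 2508.88. No groups overlapped, and the KO-labelled libraries lay between the other groups. The log2 fold change in WT MI was 0.40 (SE 0.096, limma adjusted p = 0.014), 0.21 above the median of all genes. It was 0.24 with upper-quartile scaling (adjusted p = 0.11) and 0.25 without the 100 most abundant genes, where it was not called, but was 0.74 with quantile normalization (adjusted p = 0.0025), and it was also not called without a filter on low values or with any of the 4 libraries compared left out.

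Taken by level, *Fth1* was the 21st and 19th most abundant listed gene in the WT sham libraries and the 10th in both WT MI libraries. *Ftl1* moved from rank 177 and 231 to rank 28 and 26. The FPKM of *Ftl1* was 0.172 and 0.123 of that of *Fth1* in WT sham. The ratio was 0.452 and 0.554 in WT MI, while the KO-labelled libraries reached 0.941 and 0.712, so the light subunit gained on the heavy one in each infarct library. Both ferritin genes together made up 0.535% and 0.544% of all FPKM in WT sham, against 0.913% and 0.979% in WT MI. Ferritin genes have processed copies in the mouse genome, and how fragments shared with such copies were counted is not given in the sources used here. *Ftl1* also overlaps the annotated gene AC151602.1.

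*Slc11a1* and *Slc11a2* encode related proton-coupled metal transporters, and of the pair *Slc11a1* alone was called in WT MI. A difference between the genes was not tested. *Slc11a1* (NCBI gene 18173, mm9 chr1:74421777-74432636, plus strand), which pumps metal out of the phagosome of macrophages and neutrophils, read 3.13 and 1.44 FPKM in WT sham, against 20.01 and 20.61 in WT MI, while 27.96 and 20.09 were found in the KO-labelled libraries. All infarct libraries were well above WT sham, where the values rest on about 22.9 and 10 fragments. The log2 fold change in WT MI was 2.75 (SE 0.26, limma adjusted p = 2.32e-04), and the ratio of means was 8.89.

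*Slc11a2* (NCBI gene 18174, mm9 chr15:100218329-100255503, minus strand), which carries ferrous iron across the cell surface and out of endosomes, had 12.88 and 12.22 in WT sham, against 12.29 and 11.84 in WT MI, while 10.97 and 11.08 were found in the KO-labelled libraries. Sham and WT MI libraries overlapped, and the log2 fold change was −0.05 with a 95% interval from −0.33 to 0.22 (limma adjusted p = 0.76). The FPKM of *Slc11a1* was thus 0.243 and 0.118 of that of *Slc11a2* in WT sham and 1.63 and 1.74 times as high in WT MI. Fragments of the overlapping gene *Gm5475* cannot be told apart from those of *Slc11a2*, since strand in the counting is not given in the sources used here.

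The genes of uptake and export were not called. *Tfrc* (NCBI gene 22042, mm9 chr16:32609006-32632880, plus strand) read 39.56 and 25.08 FPKM in WT sham, against 31.78 and 40.3 in WT MI, while 29.44 and 35.92 were found in the KO-labelled libraries. The groups overlapped throughout, and the log2 fold change in WT MI was 0.18 with an interval from −0.33 to 0.69, a sign that turned with quantile normalization. *Slc48a1* (NCBI gene 67739, mm9 chr15:97614786-97623123, plus strand), a heme transporter of the lysosome, had 41.42 and 33.57 in WT sham, against 42.82 and 44.64 in WT MI. Both WT MI libraries were above both WT sham libraries by little, and the log2 fold change was 0.22 with an interval from −0.05 to 0.50 (limma adjusted p = 0.18). The KO-labelled libraries, at 42.8 and 41.53, were in the same range, and *Slc48a1* overlaps *Hdac7*.

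*Slc40a1* (NCBI gene 53945, mm9 chr1:45964915-45982439, minus strand), the iron exporter ferroportin, read 6.87 and 6.49 FPKM in WT sham, against 6.17 and 8.89 in WT MI, while 9.35 and 8.6 were found in the KO-labelled libraries. WT MI libraries lay on either side of WT sham, and the log2 fold change was 0.13 with an interval from −0.28 to 0.55, a sign that turned with upper-quartile scaling and quantile normalization. *Hamp* (NCBI gene 84506, mm9 chr7:31727390-31729036, minus strand), made mainly by the liver, was listed at 0.83 in WT sham replicate 1 and 1.27 in *Card9* KO MI replicate 2 and in no other library. On its transcript of 392 bases these values are worth about 1.03 and 2.05 fragments, so *Hamp* was not tested and no difference was detectable at this depth.

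The members that carry an iron-responsive element in the 5′ untranslated region did not share 1 size of change: *Ftl1* rose by 2.18 on the log2 scale of FPKM + 1, *Fth1* by 0.40, and *Slc40a1* had a value of 0.13 that did not pass. *Tfrc*, with the elements in its 3′ untranslated region, also did not pass. Protein was not measured in these libraries.

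**Figure D2:**
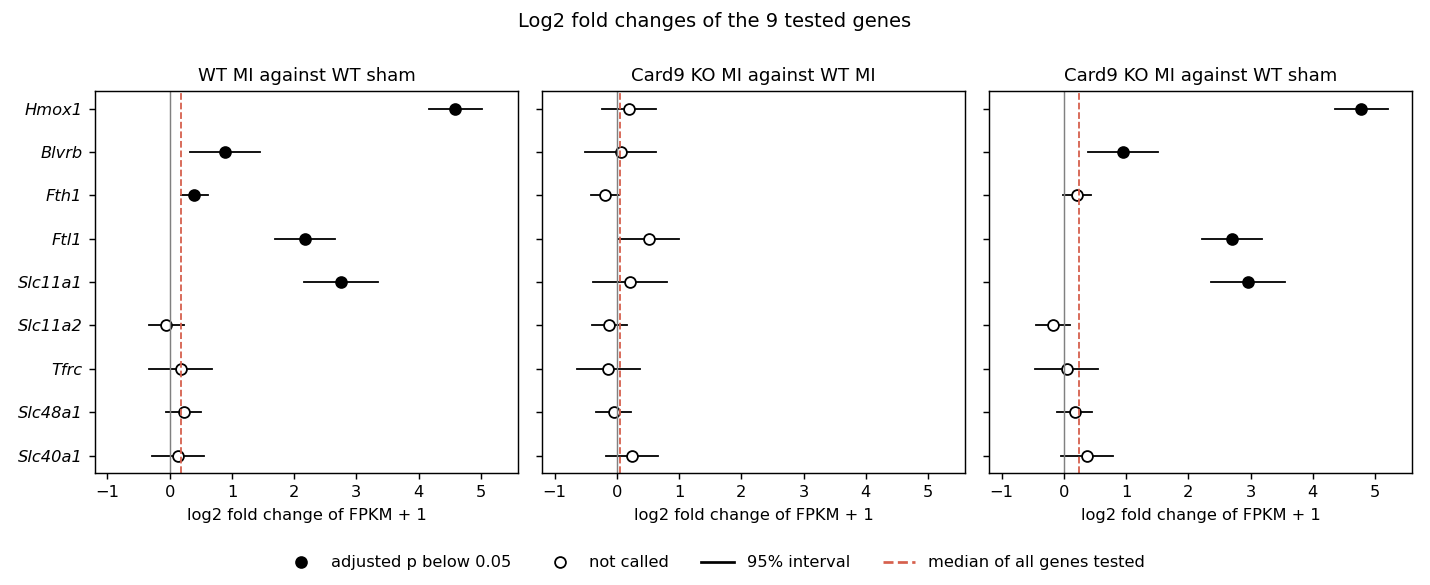
Log2 fold change of FPKM + 1 of the 9 tested members in the 3 comparisons, with 95% intervals as lines, filled points for adjusted p below 0.05 and a dashed line at the median of all genes tested. *Hmox1* (4.59), *Slc11a1* (2.75) and *Ftl1* (2.18) stand furthest from the dashed line at 0.19 in WT MI against WT sham, and no point is filled in *Card9* KO MI against WT MI.

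When KO-labelled libraries were compared with WT MI, none of the 9 tested members was called by limma, whereas 0.816% of all genes were called higher and 0.587% lower. Members had a median log2 value of 0.06 here, beside 0.04 for all genes. At an unadjusted p below 0.05 there was 1 member, *Ftl1*, beside 2629 of 13120 genes, and the recomputed screen of the study called 0 members. *Ftl1* was higher in each KO-labelled library than in each WT MI library, with a log2 fold change of 0.52 and an interval from 0.04 to 1.00 (limma adjusted p = 0.22). It was 0.25 without *Card9* KO MI replicate 1 and 0.79 without replicate 2. *Fth1* had the opposite sign, with both libraries below WT MI and a log2 fold change of −0.19 (interval −0.41 to 0.03, adjusted p = 0.32), a sign that turned to 0.01 with quantile normalization.

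The other values between the infarct groups were small and their intervals wide. *Hmox1* had a log2 fold change of 0.19 with an interval from −0.24 to 0.62, and it was −0.12 without *Card9* KO MI replicate 1, the library that alone exceeded WT MI. The value was 0.21 for *Slc11a1* (−0.38 to 0.81), 0.06 for *Blvrb* (−0.50 to 0.62), 0.24 for *Slc40a1* (−0.17 to 0.66) and −0.12 for *Slc11a2* (−0.40 to 0.16). *Slc48a1* stood at −0.05 (−0.33 to 0.23) and *Tfrc* at −0.13 (−0.64 to 0.37). *Card9* KO MI replicate 1 was the highest of the 6 libraries in *Hmox1*, *Blvrb*, *Ftl1*, *Slc11a1* and *Slc40a1*.

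Set against WT sham, KO-labelled libraries had 4 of the 9 members called higher and 0 lower, beside 34.8% of all genes called higher and 14.3% lower. This comparison shares the WT sham libraries with the previous one of WT MI, and its groups differ in surgery and in labelled genotype, which cannot be told apart. The log2 fold changes were 4.78 for *Hmox1*, 2.96 for *Slc11a1*, 2.70 for *Ftl1* and 0.95 for *Blvrb*, with limma adjusted p between 5.65e-06 and 0.014. *Fth1* had a value of 0.21 (interval −0.01 to 0.43, adjusted p = 0.11). It was 0.04 with upper-quartile scaling and without the 100 most abundant genes, but was called at 0.75 with quantile normalization (adjusted p = 0.0013) and at 0.28 without *Card9* KO MI replicate 2 (adjusted p = 0.032). With quantile normalization 5 members were called higher and 1 lower, *Slc11a2* at −0.48 (adjusted p = 0.013), beside −0.17 in the values as deposited (adjusted p = 0.26). The call of *Blvrb* was lost without WT sham replicate 2 and without *Card9* KO MI replicate 1. Of all calls here 70.9% were higher, against 58.8%, 45.5% and 59% under the 3 other scalings.

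The genes around the members in iron and heme metabolism, 67 in lists by function, moved in both directions. In WT MI against WT sham, 12 of the 58 tested were called higher and 11 lower, with a median log2 fold change of 0.11. The shares over all genes were 27.7% and 9.39%, and the counts of the lists that follow stand beside these shares. Under the other scalings 9 were called higher and 14 to 18 lower. Of the 58 genes, 51 reached 1 FPKM in both WT sham libraries, and the other 7 were tested only because infarct libraries passed the filter. Of those 7, 3 were called higher, namely *Hp*, *Steap2* and *Flvcr1*. The filter favoured these 3 calls, which are part of the counts, so the levels of these genes are given as a description. In heme breakdown and scavenging, 3 of 6 tested genes were called higher and 0 lower under every scaling run. Of these 3 calls, 1 was that of *Hp*, which was tested only because infarct libraries passed the filter. *Hp*, which encodes haptoglobin, the binder of free hemoglobin, had the largest value. It read 0.7 and 1.71 FPKM in WT sham, against 24.86 and 9.21 in WT MI, while 8.76 and 7.87 were found in the KO-labelled libraries. Its log2 value in WT MI was 2.92. Leaving out WT MI replicate 1 gave 2.25, leaving out replicate 2 gave 3.59, and other pseudocounts gave 1.74 and 3.66.

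Heme synthesis went partly the other way, with 1 of 9 genes called higher and 2 lower, a median of −0.14, and 4 lower under each of the other scalings. *Cpox*, a mitochondrial enzyme late in the pathway, read 24.57 and 21.27 FPKM in WT sham, against 12.47 and 11.92 in WT MI. It fell by 0.86 on the log2 scale (SE 0.14, adjusted p = 0.0026). The gene called higher was *Alas2*, the red-cell form of the entry enzyme and also an erythroid marker, at 4.79 and 2.56 in WT sham and 8.23 and 13.34 in WT MI (log2 fold change 1.34, SE 0.28, adjusted p = 0.0079), a call that was lost without WT MI replicate 2.

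Genes of iron-sulfur cluster assembly, which build the cofactors of the respiratory chain, fell more than they rose. Of 15 tested, 7 were called lower and 1 higher, with a median of −0.28, and under the other scalings 7 or 8 were lower and 0 higher. *Bola3*, a late-acting maturation factor, read 427.59 and 459.15 FPKM in WT sham, against 248.8 and 257.89 in WT MI. Its log2 fold change was −0.80 (SE 0.092, adjusted p = 5.36e-04). *Fdx2*, a ferredoxin that gives electrons to the assembly, was the gene called higher (0.54, adjusted p = 0.033), and it was not called under any of the 3 other scalings. Heart muscle markers were called lower in 8 of 10 cases in WT MI, beside 9.39% of all genes, and 0 of the 10 had a positive value. Their median was −0.95, and their part in the values of these genes was not tested.

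In iron uptake and reduction, 3 of 10 tested genes were called higher and 1 lower. *Steap2*, a metalloreductase, read 0.13 and 0.22 FPKM in WT sham, against 1.8 and 1.88 in WT MI. Its log2 fold change of 1.27 depended on the pseudocount (0.40 with 5 and 2.84 with 0.1), and its WT sham values lie below the 0.475 and 0.498 FPKM that 3 fragments give on 2 kb of transcript there. Another metalloreductase, *Steap4*, fell by 0.42 (adjusted p = 0.032), a call lost with any of the 4 libraries left out. In storage, chaperones, oxidation and export, the iron chaperone gene *Pcbp1* was called higher (0.42, adjusted p = 0.023) among 5 tested, but not under the other scalings. In sensing and hepcidin control 1 of 6 was called higher and 1 lower: *Hfe*, a partner of the transferrin receptor, had a log2 fold change of 0.52, and *Hjv*, the co-receptor hemojuvelin, of −0.54, a call that was lost without WT sham replicate 1 and without either WT MI library. In heme transport 1 of 5 was called, *Flvcr1*, a heme exporter, at 0.92 and 1.04 FPKM in WT sham, against 3.66 and 2.84 in WT MI. Its log2 fold change of 1.10 was 0.46 with a pseudocount of 5 and 1.62 with 0.1.

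**Figure D3:**
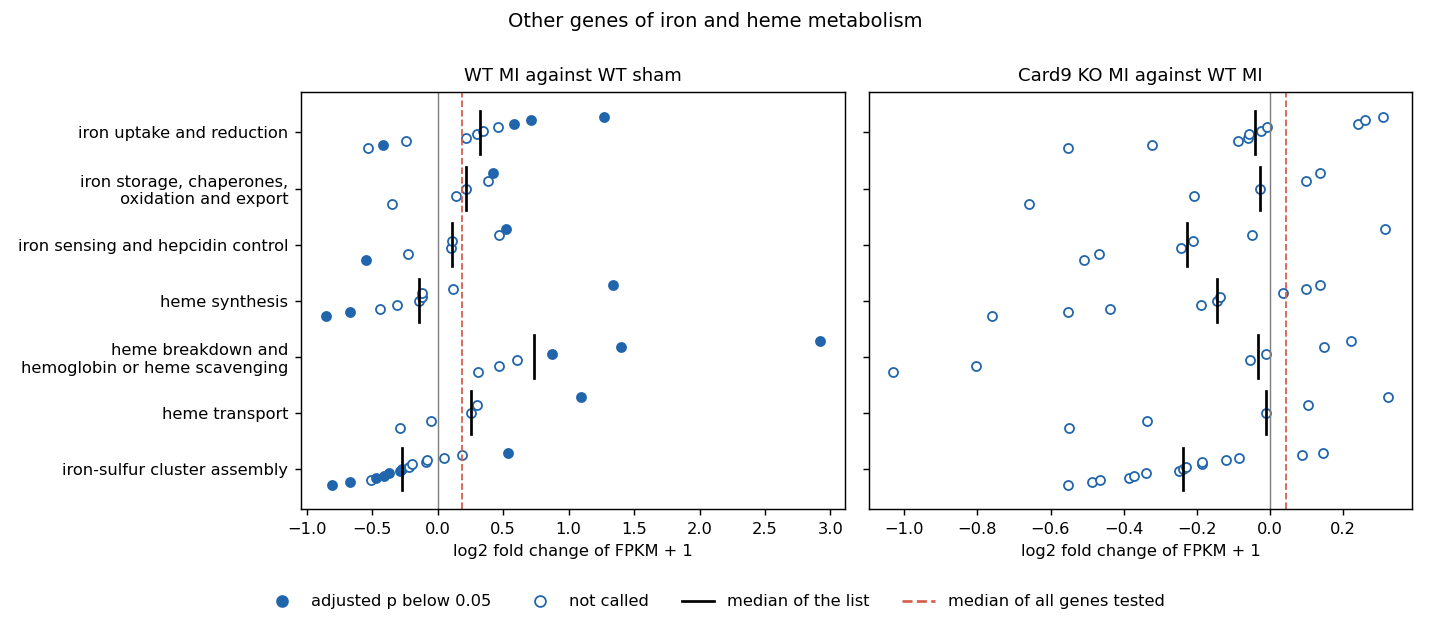
Log2 fold change of FPKM + 1 of the other tested iron and heme genes by list, without the siderophore-binding list, in WT MI against WT sham and *Card9* KO MI against WT MI, with filled points for adjusted p below 0.05, black bars for list medians and a dashed line for the median of all genes; the panels have their own scales. The iron-sulfur list lies mostly left of 0 in WT MI (median −0.28), the breakdown and scavenging list right of it (median 0.74), and no point is filled between the infarct groups.

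In the same comparison with WT MI, 1 of the 58 other genes was called lower and 0 higher, with a median of −0.14. At an unadjusted p below 0.05, 16 of the 58 were lower and 2 higher, beside 1125 lower and 1504 higher of the 13120 genes. The called gene was *Lcn2*, whose protein lipocalin 2 binds iron-loaded siderophores. It read 1.9 and 3.17 FPKM in WT sham, against 268.76 and 203.93 in WT MI, while 6.98 and 7.27 were found in the KO-labelled libraries. The log2 fold change was −4.86 against WT MI (SE 0.20, limma adjusted p = 2.01e-04) and 6.08 for WT MI against WT sham. In the KO-labelled libraries it stood 1.22 above WT sham on the log2 scale (adjusted p = 0.0017), where *Hmox1* stood 4.78 above. Neutrophil markers had a median log2 fold change of −1.18 against WT MI, beside 0.04 for all genes. Of the 8 tested, 1 was called lower, *Mmp9* at −2.05 (limma adjusted p = 0.045), and 0 higher. The shares over all genes were 0.587% lower and 0.816% higher. The part of neutrophil markers in the *Lcn2* value was not tested.

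*Cp*, which encodes ceruloplasmin, the oxidase that loads exported iron onto transferrin, was chosen after its values were seen because 5 alternatives called it. It read 39.34 and 33.04 FPKM in WT sham, against 29.39 and 26.75 in WT MI, while 17.13 and 17.66 were found in the KO-labelled libraries, and no groups overlapped. The log2 fold change against WT MI was −0.66 (SE 0.12, limma adjusted p = 0.051). Set against WT sham, the same libraries had 12 of the 58 other genes called higher and 19 lower, beside 14.3% of all genes lower and 34.8% higher. Under the other scalings 7 or 8 were higher and 22 to 26 lower. Of the 58 genes, 7 were tested only because infarct libraries passed the filter, which favoured higher calls among them here too. Lower calls included 8 of 15 iron-sulfur genes and 5 of 9 heme synthesis genes, against 10 to 12 and 6 under the other scalings.

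Marker sums of cell types rose, fell or stayed close to WT sham, depending on the list. Whether markers varied together with the members was not tested. In bulk tissue fewer cells of a type and less RNA per cell cannot be told apart. Over all genes, 27.7% were called higher and 9.39% lower in WT MI, and the WT MI marker counts that follow stand beside these shares. Macrophage markers were called higher in WT MI in 13 of 16 cases. Of these 13 calls, 1 was that of *Ccr2*, at 0.85 and 0.91 FPKM in WT sham. It was tested only because infarct libraries passed the filter. The summed FPKM of macrophage markers was 446 and 383 in WT sham, against 1509 and 1909 in WT MI, while 3012 and 2186 were found in the KO-labelled libraries. Relative to the WT sham mean, that sum was 3.64 and 4.61 in WT MI, while *Hmox1* was 25.0 and 28.3, *Slc11a1* 8.76 and 9.02 and *Ftl1* 4.04 and 4.98. The sum is carried by *Lyz2* and the *C1q* genes, and the ratio of group means of single markers ran from 1.02 for *Timd4* to 11.2 for *Cd68*, 11.9 for *Itgam*, 14.4 for *Fcgr1* and 18.6 for *Ccr2*. In *Card9* KO MI replicates 1 and 2 the macrophage sum was 7.27 and 5.28, and *Hmox1* 37.7 and 24.4. Between the infarct groups 12 of 16 macrophage markers had a positive log2 fold change, that is, higher in the KO-labelled libraries. The median was 0.46, beside 0.04 for all genes. By limma 0 of the 16 were called higher and 1 lower, *Lyve1* at −1.11 (adjusted p = 0.037). The shares over all genes were 0.816% higher and 0.587% lower. With quantile normalization 2 of the 16 were called higher and 1 lower. *Card9* KO MI replicate 1 was thus higher than replicate 2 for the macrophage sum as for the 5 members called after infarction.

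The summed FPKM of neutrophil markers was 8.56 and 5.91 in WT sham, against 252 and 108 in WT MI, while 65.0 and 51.5 were found in the KO-labelled libraries, with 8 of 8 tested called higher in WT MI. Of these 8, 6 were below 1 FPKM in at least 1 WT sham library and were tested only because infarct libraries passed the filter. The summed FPKM of erythroid markers spread widely within groups, at 1752 and 780 in WT sham. It was 2928 and 4589 in WT MI, while 2826 and 1448 were found in the KO-labelled libraries. Of the 6 tested, 4 were called higher in WT MI and 0 lower, with 3 or 4 higher under the other scalings. In the KO-labelled libraries against WT sham 0 of the 6 were called, beside 34.8% of all genes higher and 14.3% lower. *Hbb-b2*, *Hbb-bt* and *Ahsp* were not listed. The neutrophil markers *Ly6g* and *Camp* were not listed either. Fibroblast markers, called higher in 6 of 8, summed to 510 and 489 in WT sham and to between 1316 and 2697 in the infarct libraries. Heart muscle markers, abundant in every library as the tissue label says, went in sum from 63439 and 64542 in WT sham to 36259 and 37581 in WT MI. The KO-labelled libraries were at 30136 and 34742. With quantile normalization 7 of these markers were called lower and 1 higher in WT MI.

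Markers of iron-recycling macrophages were low, between 12.4 and 34.0 in sum, with 3 of 4 tested called higher in WT MI and 2 under each of the other scalings, but 2 of the 4 were tested only because infarct libraries passed the filter. *Cd163* stands in this list, in the macrophage list and in the scavenging list. *Cd5l* was not listed in WT sham and read 1.21 and 1.62 FPKM in WT MI, while the KO-labelled libraries had 11.52 and 4.28. Endothelial markers stayed between 376 and 474 in sum. In WT MI 3 of 8 were called higher and 1 lower, beside 27.7% and 9.39% of all genes. Under the other scalings 0 were called higher and 2 or 3 lower. Markers of hepatocytes, the main source of *Hamp*, summed to between 0.52 and 1.29, none was tested, and *Fgb* was not listed. The part of these cell types in the members' values was not tested.

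**Figure D4:**
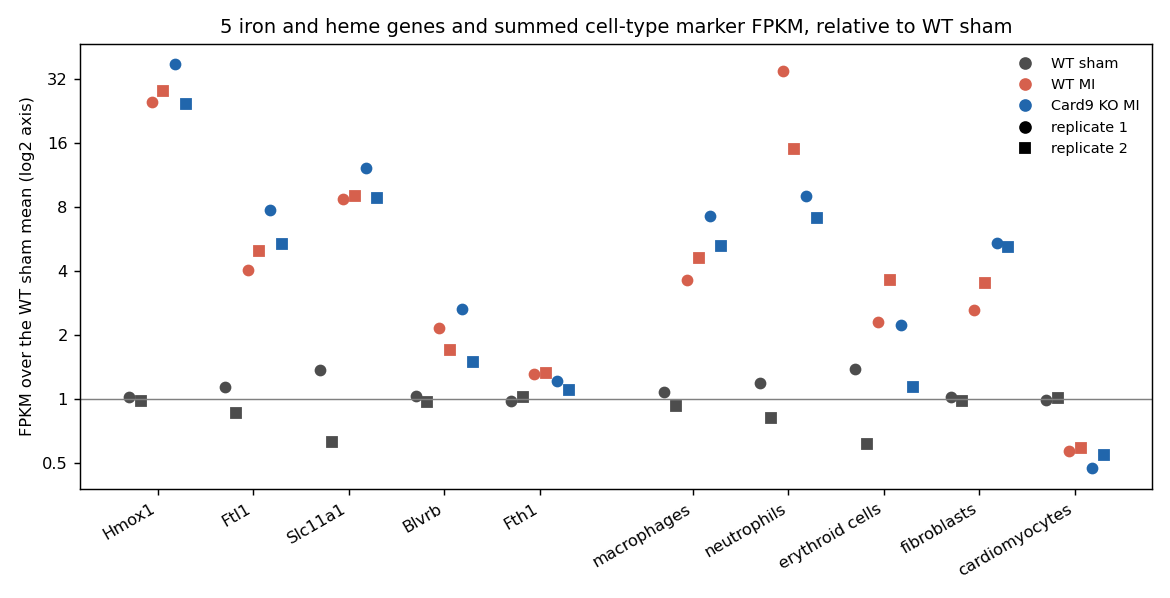
FPKM in each library divided by the WT sham mean, on a log2 axis, for 5 members and for the summed markers of 5 cell types, with colours for groups and circles and squares for replicates 1 and 2. *Hmox1* lies between 24.4 and 37.7 in the infarct libraries, with the macrophage sum at 3.64 to 7.27, and neutrophil markers are lower in the KO-labelled libraries than in WT MI.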

How the data were processed

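TRIzol was used for extraction and oligo(dT) for mRNA selection, and the authors ran the libraries on an Illumina HiSeq system and aligned reads to mm9 with BWA and Bowtie2. The deposited unit is FPKM, keyed by NCBI gene number, in a separate list for each library. The gene annotation, strand setting and treatment of shared reads are not given in the sources used here. Samples were grouped by their titles and labels. Files list only genes above 0, and missing genes were set to 0. Of the 17441 gene numbers, 17390 matched a symbol in a GRCm38.p6 table, used for names only, and 51 did not. Positions and transcripts are those of GENCODE M1 on mm9.

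FPKM are not counts. Steps of low values gave whole fragments within 0.1 for only 65.5% to 68.8% of them, so counts were not rebuilt. The estimated fragments cover counting error only. Values were tested as log2(FPKM + 1) with limma 3.58.1 in R 4.3.3 (lmFit, eBayes with trend) over the 13120 genes that reached 1 FPKM in 2 or more libraries, after a test on simulated data. Tables and figures used Python 3.11.15, pandas 2.3.3, numpy 2.4.6 and matplotlib 3.10.9.

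The members and the lists (iron and heme genes and markers of macrophages, iron-recycling macrophages, neutrophils, erythroid cells, cardiomyocytes, fibroblasts, endothelial cells and hepatocytes) were chosen with earlier results of these data known. All members are named, and of each other iron and heme list the largest call each way in WT MI against WT sham and every call between the infarct groups, with *Card9* and *Lcn2*. Other genes named beside a member are its related enzymes, listed in the same family. Alternatives were other pseudocounts, filters, scalings and call rules, a replicate block, eBayes with no trend, a fit restricted to the 2 groups compared, each library left out, and the study's screen (fold of at least 2 and probability of at least 0.8 against within-group noise) recomputed here.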

Additional observations from a re-analysis of the deposited data

How the results depend on the processing

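Of the 9 tested members, *Hmox1*, *Ftl1* and *Slc11a1* kept their calls in WT MI against WT sham under all 17 alternative fits. The member count there, 5, was 3 without a filter on low values, 3 with a 2-fold minimum, 3 by the recomputed screen, and 3 to 5 with a library left out (3 without any 1 of the 4 WT sham and WT MI libraries, the lone library left being assumed to vary like the other groups). The 23 other iron and heme genes called were 6 with the 2-fold minimum, 4 by the screen, and 15 to 21 with a library left out, 15 without WT MI replicate 1. Between the infarct groups the 1 other gene became 2, *Cp* being added, with log2(FPKM + 5), a mean FPKM of at least 5, only genes listed in all 6 libraries, quantile normalization, or without the 100 most abundant genes. Against WT sham the 31 others called in the KO-labelled libraries were 9 with the 2-fold minimum and 4 by the screen. Signs turned only for values that were not called: with quantile normalization *Fth1* between infarct groups (0.010), *Tfrc* (−0.016) and *Slc40a1* (−0.15) in WT MI, and *Tfrc* (−0.15) and *Slc48a1* (−0.0045) in the KO-labelled libraries against WT sham; with upper-quartile scaling *Slc40a1* in WT MI (−0.0054) and *Tfrc* against WT sham (−0.12), the latter also without the 100 most abundant genes (−0.12). With a library left out, log2 fold changes between infarct groups ran from −0.12 to 0.50 for *Hmox1*, −0.34 to 0.46 for *Blvrb*, −0.30 to 0.032 for *Tfrc* and −0.015 to 0.44 for *Slc11a1*; in WT MI from −0.14 to 0.50 for *Tfrc* and −0.10 to 0.37 for *Slc40a1*; and for *Tfrc* in *Card9* KO MI against WT sham from −0.27 to 0.36. The cause was not tested. Libraries with the same replicate number did not deviate together (r of 0.0024, −0.0083 and 0.020 across genes). No pairing by number was thus seen, but 2 libraries per group cannot exclude a pairing or a shared batch. With a replicate block 5 members were still called in WT MI, 0 between infarct groups and 4 against WT sham. Values below about 0.351 to 0.498 FPKM, 3 fragments on 2 kb, are near the limit of detection.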
